A study of Mus musculus with 1479 samples.

Results

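Cluster 11 of the bladder cells was a small group of fibroblasts that came mostly from 1 mouse line. Its members were taken from the cluster number that the labels give each cell. They were 51 of the 1479 cells of the series, and 43 of them came from Acta2GFP mice on the plate bladder_515s, where a transgene with the Acta2 promoter drives GFP. The other 8 came from PdgfrbGFP mice (4 cells on bladder_515s and 1 on bladder_074s), in which GFP is driven by the Pdgfrb promoter, and from C57BL6 mice without a reporter (3 cells on bladder_443s). The series also held PdgfrbGFP cells on bladder_881s, PdgfraGFP cells (bladder_689s), which carry GFP at the Pdgfra locus, and Cspg4dsRED cells (bladder_352s and bladder_689s), in which a transgene of the mural cell gene Cspg4 drives the red protein dsRED. All cells were from bladders of adult males aged 10 to 20 weeks and were sorted singly as PDGFRα, PDGFRβ or reporter positive and CD31 negative, then read with Smart-seq2. Cluster 3, the largest fibroblast cluster, served as the main reference, with 37 Acta2GFP cells on bladder_515s, 78 PdgfrbGFP cells on that plate, 99 PdgfrbGFP cells on bladder_074s and 71 C57BL6 cells on bladder_443s. According to the study's methods, elastase was added when Acta2 positive cells were isolated from Acta2GFP mice, so the line, the enzyme and the sort cannot be told apart. No label names an animal, and the clusters were made from the same genes, so the differences below are descriptions of cells and carry no test.

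Fibroblasts build and turn over the collagens, proteoglycans and elastic fibres of the bladder wall. In many organs a fibroblast population with Pi16, Dpp4 and Ly6a lies in the adventitia around larger vessels. The 3 genes given as markers of cluster 11 encode secreted or matrix-associated proteins. Lgals3 encodes galectin-3, a lectin that binds β-galactosides, Spon2 encodes spondin-2, a matrix protein, and Prss23 encodes a secreted serine protease. These markers were proposed from these same cells.

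The sequences around the transcription starts of 2 of the 3 markers are shown because they are the given markers of cluster 11. The AP-1 motif TGANTCA is the one that proteins of the Fos family bind. Of their genes, Fos and Fosb stood higher in this cluster than in cluster 3 of Acta2GFP. Among the 43 Acta2GFP cells of cluster 11, Fos had Spearman correlations of -0.49 with Lgals3, -0.27 with Spon2 and -0.26 with Prss23. A part of AP-1 in the marker levels was not tested. The sequences come from RefSeq (GRCm38.p6) and run 5′ to 3′ from 250 bases before the start to 50 after it. A match to TGANTCA is in capitals. The window of Lgals3 lies at chr14:47373610-47373909 (plus strand), and the window of Prss23, chosen among 7 because it holds a match, at chr7:89518155-89518454 (minus strand). Spon2 had no entry in the promoter set used here.
Lgals3: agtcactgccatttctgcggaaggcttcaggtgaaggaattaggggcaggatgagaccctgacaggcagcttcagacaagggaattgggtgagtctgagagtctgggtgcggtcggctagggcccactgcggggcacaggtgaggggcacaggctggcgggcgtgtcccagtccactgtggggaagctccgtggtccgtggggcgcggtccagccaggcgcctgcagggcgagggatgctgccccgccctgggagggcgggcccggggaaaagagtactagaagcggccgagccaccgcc
Prss23: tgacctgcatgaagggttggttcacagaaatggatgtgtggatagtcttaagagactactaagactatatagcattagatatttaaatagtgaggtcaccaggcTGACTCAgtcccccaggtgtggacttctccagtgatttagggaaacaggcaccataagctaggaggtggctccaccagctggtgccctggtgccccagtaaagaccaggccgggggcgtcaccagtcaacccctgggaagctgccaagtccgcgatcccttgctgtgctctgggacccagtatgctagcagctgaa
The Lgals3 window held no match, and 2 of the 7 Prss23 windows, which overlap and share the site, held 1, while the other 5 held none. Of all 32851 promoter windows of 300 bases, 7.81% held the motif, which reads the same way on both strands.

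Cluster 11 made up 33.3% of the Acta2GFP cells (43 cells, 95% exact binomial interval 25.3% to 42.2%, counting error only). On the same plate it made up 2.19% of the PdgfrbGFP cells (4 cells, 0.599% to 5.50%). The shares were 1.58% of the 190 C57BL6 cells and 0.274% of the 365 PdgfrbGFP cells on bladder_074s. No PdgfrbGFP cell on bladder_881s, no PdgfraGFP cell and no Cspg4dsRED cell was in it, and a count of 0 (taken as up to 3 cells) allows shares of up to 1.15%, 2.04% and 1.48%. Acta2GFP filled the 7 upper rows of the plate, A to G, and PdgfrbGFP the 9 lower rows. The cluster was found in all 7 Acta2GFP rows, from 3 of 16 cells in row D to 10 of 21 in row C, and in 21 wells of columns 1 to 12 against 22 wells of columns 13 to 24. In the map of the wells the cluster ends at the border between the lines but for 4 wells.

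**Figure D1:**
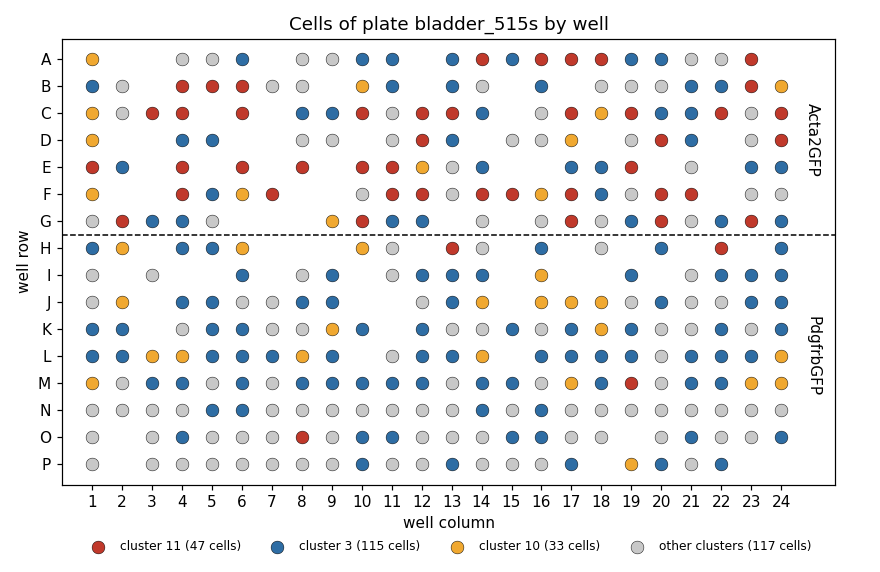
Wells of plate bladder_515s by row and column, with each cell coloured by its cluster and a dashed line between the Acta2GFP rows (A to G) and the PdgfrbGFP rows (H to P). Of the 47 cluster 11 cells on the plate, 43 lie above the line and 4 below it.

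Markers of fibroblasts were present in cluster 11. The 11 pan-fibroblast genes, among them the collagen gene Col1a1 and the proteoglycan gene Dcn, had a median log2 difference from cluster 3 of -0.03, and ran from -0.60 for the lysyl oxidase-like gene Loxl1 to 0.37 for Pdgfra. A level is the number of reads per 500000 endogenous reads of a cell. Col1a1 had a mean level of 5158 in the 43 cells and 4802 in the 37 cells of cluster 3. Pdgfra reads were found in 50 of the 51 cells and Pdgfrb reads in 46. The study had removed cells that lacked both, and cells with endothelial, immune or epithelial signatures, so the presence of 1 of these receptors and the low level of such markers were set beforehand. The summed level of 14 mural markers ran from 11.7 to 1477 with a median of 54.7 in cluster 11, from 0 to 866 with a median of 99.9 in cluster 3, and had a median of 12287 in the 12 Acta2GFP cells of cluster 10, the mural cells. The pericyte genes Kcnj8 and Higd1b were at 0 in cluster 11. Acta2 itself, the gene behind the reporter, had a mean level of 48.1 in cluster 11, 85.5 in cluster 3 and 5180 in cluster 10. The median was 25.77 in cluster 11 and 27.5 in cluster 3. The urothelial genes Upk2, Upk3a, Epcam and Cdh1, the endothelial genes Cdh5, Cldn5 and Emcn, the immune genes Ptprc, Cd68 and Fcer1g, and the mesothelial genes Msln, Lrrn4 and Krt8 were at 0 in all 43 cells. The summed levels of these lists reached 21.4 (9 urothelial genes), 127.9 (7 endothelial), 70.2 (9 immune) and 89.7 (9 mesothelial) at most in a cluster 11 cell. The 7 Schwann genes reached 367 in 1 cell, with a median of 4.48 in cluster 11 and 3.39 in cluster 3.

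Depth and RNA content were slightly lower in cluster 11. The Acta2GFP cells had a median of 137846 reads (61373 to 329638), against 158342 (59262 to 416715) in cluster 3. With each cell thinned to 50000 endogenous reads, they had a median of 3227 genes (2456 to 4236), against 3469 (2927 to 4302). Endogenous reads per read of the ERCC spike-in RNA, a relative measure of the RNA in a cell, had medians of 86.7 and 103.1, and the mitochondrial share had medians of 1.29% and 1.14%. The ranges overlapped in each of these measures. Their part in the differences below was not tested.

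Lgals3 (ENSMUSG00000050335, chromosome 14, 47367751 to 47386160, GENCODE M21 on GRCm38) was the gene that separated cluster 11 from cluster 3 most clearly. In the 43 Acta2GFP cells of cluster 11 its level ran from 0 to 774 with a median of 226.4, and in the 37 cells of cluster 3 from 0 to 190 with a median of 3.39. The cells rested on 3794 reads (95% Poisson interval 3674 to 3917, counting error only) and 427 reads (387 to 469). Means were 265.01 and 32.6, a log2 difference of mean levels of 2.99 with 1 added to each, and 22 of the 43 cells lay above the highest cell of cluster 3. The groups thus overlapped at the low end, where 4 cluster 11 cells lay below the median of cluster 3. As a measure that a few high cells cannot carry, the pair share is the percent of all pairs of 1 cluster 11 cell and 1 cluster 3 cell in which the cluster 11 cell is higher. It was 88.5% for Lgals3, where 50% means no difference, and 89.1% after thinning.

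The same direction was seen in the few cells of other lines. In the 4 PdgfrbGFP cells of bladder_515s Lgals3 stood at 0, 113.2, 137.2 and 271.7, where the 78 cluster 3 cells of that line had a mean of 25.9 and a median of 0. In the 3 C57BL6 cells it stood at 322.2, 513 and 645, against a mean of 84.5 in 71 cells. The single cell of bladder_074s was at 284.9. On bladder_515s, cluster 3 had means of 32.6 in Acta2GFP and 25.9 in PdgfrbGFP cells, with a pair share of 55.96% between them, below the mean of C57BL6.

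Spon2 (chromosome 5, 33198184 to 33218455) was abundant and variable in cluster 11. Its level ran from 2.93 to 4221 with a median of 1497, against 7.78 to 2534 with a median of 526 in cluster 3, and the pair share was 70.6%. Only 5 of the 43 cells lay above the highest cell of cluster 3. The 4 PdgfrbGFP cells stood at 58.8, 281.9, 1034 and 2836, against a mean of 347 in cluster 3. The 3 C57BL6 cells stood at 442, 681 and 1223, against a mean of 818, so the difference was not seen there. The cell of bladder_074s stood at 674. Its summed level of the 6 spondin and R-spondin genes was 680, below the mean of 972 in cluster 3 of that plate. Spon2 also differed between the lines within cluster 3, with 679 in Acta2GFP and 347 in PdgfrbGFP cells (pair share 71.1%), beside 70.6% between the clusters.

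Prss23 (chromosome 7, 89507783 to 89527187) ran from 0 to 2959 with a median of 907 in cluster 11, and from 21.3 to 1712 with a median of 622 in cluster 3. The log2 difference of mean levels was 0.74 and the pair share 67.3%, below the limit of 70% used for a call. The 4 PdgfrbGFP cells stood at 717, 1181, 1274 and 1993, all above the median of 565 of cluster 3 in that line, and the 3 C57BL6 cells stood at 423, 942 and 1327, above the median of 336.3. The cell of bladder_074s stood at 374, against a median of 358 in cluster 3 of that plate. The antisense gene Prss23os overlaps Prss23 and had means of 563 and 332.3. As the strand setting of the counting is not given in the sources used here, reads of the pair cannot be told apart.

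**Figure D2:**
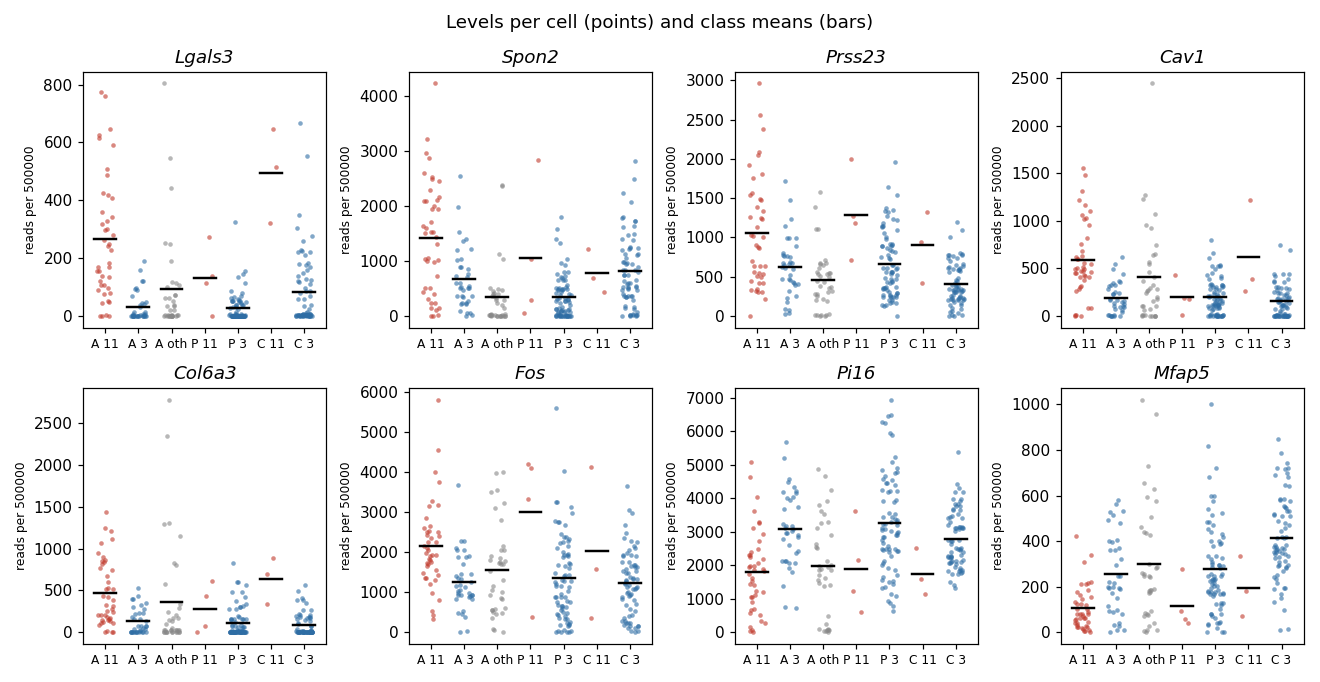
Level of 8 genes (reads per 500000 endogenous reads) in each cell, with class means as bars, for Acta2GFP (A), PdgfrbGFP on the same plate (P) and C57BL6 (C) cells of cluster 11, cluster 3 and the other fibroblast clusters (oth). Lgals3 lies at a mean of 265.01 in A 11 and 32.6 in A 3, and Pi16 and Mfap5 lie lower in A 11 than in A 3.

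The 3 markers did not mark every member. With the upper quartile of cluster 3 as a limit for each gene, 18 of the 43 cells (41.9%) exceeded it for all 3 genes, 14 for 2 genes, 9 for 1 gene and 2 for none. In cluster 3 the counts were 0 cells for all 3 and 17 of 37 for none, and in the other fibroblast clusters of the line 1 of 37 for all 3. These counts describe the genes by which the cluster was recognised.

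Across the 5275 described genes (a mean level of at least 10 and a read in at least 30% of the cells of 1 class), 6.33% were at least 2-fold higher in cluster 11 than in cluster 3 of Acta2GFP and 7.17% (378 genes) at least 2-fold lower. The largest of these differences belonged to genes read in few cells. The 15 with the largest difference upwards included Flt1, Pfkm, Lipg, Rps6kc1, Nup133, Plagl1, Lgals3, Pxdn, Arhgap35, Mrps18b, Nr4a2, Osbp2, Igf2bp2 and Fam168a, with log2 differences of 2.60 to 5.46. For 13 of them the median was 0 in both clusters. Flt1, which encodes a VEGF receptor, had a mean of 50.4 against 0.168 (log2 difference 5.46), but it was read in 13 of 43 cells and 1 cell held 32.2% of the sum of levels. Pfkm, a muscle phosphofructokinase gene, was likewise read in 13 cells, with means of 34.8 and 0.232. The 10 with the largest difference downwards were Angptl7, Rnf125, Itprid2, Spred1, Lrwd1, Rsl24d1, Dtx3l, Wfdc1, Cog1 and Angpt1, with log2 differences of -4.83 to -2.62, and all 10 had a median of 0 in both clusters. Among the 15, the log2 difference lay above 0 for 3 in PdgfrbGFP cells and for 6 in C57BL6 cells, where 40% and 40.4% of all described genes did. Their pair share was above 50% for 4 and for 10, beside 47% and 41.9% of all described genes. Among the 10, the log2 difference lay below 0 for 7 and for 8 (60% and 59.6% of all described genes), and the pair share was below 50% for 7 and for 8 (52.1% and 58%).

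The pair share, a measure chosen after the values were seen, picked out fewer genes. It was at least 70% for 17 genes (0.322% of those described) and at most 30% for 31 (0.588%), while 84.6% of the genes lay between 40% and 60%. After Lgals3 came Cav1 (chromosome 6, 17306335 to 17341452), the gene for caveolin-1, the coat protein of caveolae. Its level ran from 0 to 1558 with a median of 498 in cluster 11 and from 0 to 618 with a median of 157.97 in cluster 3, a pair share of 82.9%. The gene for Cavin1, which coats caveolae with caveolin, had means of 377 and 282.7, and Cav2 had 11.7 and 22.4. Cav1 stood at 265.05, 387 and 1219 in the 3 C57BL6 cells (mean of cluster 3, 154.01). In the 4 PdgfrbGFP cells it stood at 9.80, 177.5, 193.6 and 434, with a mean of 203.7 against 197.8 in cluster 3, and the single cell of bladder_074s was at 2.98. Against the other fibroblast clusters of Acta2GFP, with a mean of 404, the log2 difference was 0.55 where it was 1.63 against cluster 3.

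Col6a3 (chromosome 1, 90765923 to 90843971), which encodes the α3 chain of collagen VI, ran from 0 to 1438 with a median of 330 in cluster 11 and from 0 to 524 with a median of 68.4 in cluster 3 (pair share 78.9%). Its partner chains did not follow it, as the log2 difference was 0.17 for Col6a1 and 0.13 for Col6a2, against 1.86 for Col6a3. The 3 C57BL6 cells stood at 332.7, 699 and 883 for Col6a3, against a mean of 82.5. The 4 PdgfrbGFP cells stood at 0, 77.2, 434 and 607, against a mean of 108.8. Against the other fibroblast clusters of Acta2GFP, with a mean of 356, the log2 difference was 0.41. Over groups of 1 line on 1 plate, clusters 5 (1069) and 8 (486) had higher mean levels of Col6a3 than cluster 11 (463). Of the 13 described collagens in the list of fibrillar and associated chains, Col6a3 and Col12a1 (log2 difference 1.603) were at least 2-fold higher and Col16a1 (-1.18) was at least 2-fold lower, beside 6.33% and 7.17% of all described genes, and the median was 0.05.

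Other genes with a pair share of at least 70% were Thsd7a (73.3%), the ER chaperone gene Hspa5 (72.1%), the cytosolic chaperone gene Hsp90ab1 (71.7%), the collagen chaperone gene Serpinh1 (71.2%), Ppp1r15a (70.99%), which encodes a regulatory subunit of the phosphatase of eIF2α, the annexin A2 partner S100a10 (70.96%), the matrix gene Dpt (70.6%), the nuclear lamina gene Lmna (70.3%) and the intermediate filament gene Vim (70.1%). Gm44036, a predicted gene, was at 71.8%. The genes of the immediate-early response, Fos (77.8%), Fosb (73.2%) and Egr1 (71.3%), made up the remainder. Fos, a partner in the AP-1 dimer, ran from 334.3 to 5797 with a median of 1989 in cluster 11 and from 13.8 to 3679 with a median of 1140 in cluster 3. The 4 PdgfrbGFP cells stood at 391.9, 3334, 4100 and 4208, against a median of 1182 in cluster 3 of that line. The 3 C57BL6 cells stood at 368.2, 1589 and 4119, against a median of 1205, and the cell of bladder_074s at 1259, against 1072. In PdgfrbGFP and in C57BL6 1 cell thus lay below the median of its cluster 3.

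**Figure D3:**
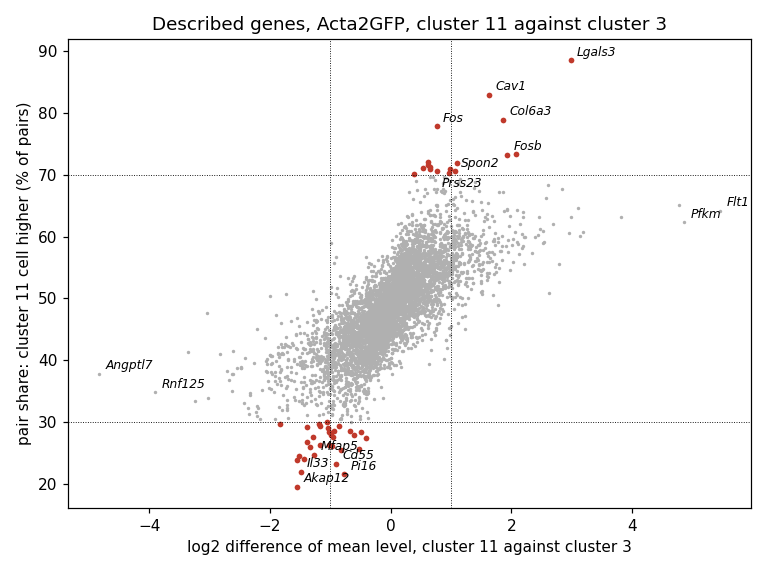
Each point is 1 of the 5275 described genes: the log2 difference of mean level between cluster 11 and cluster 3 of Acta2GFP on the x axis and the pair share in percent on the y axis, with dotted lines at a log2 difference of -1 and 1 and a pair share of 30% and 70%. The red points are the 17 genes above 70% and the 31 below 30%, and genes of large difference such as Flt1 and Pfkm lie between the limits.

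Among the 31 genes with the lowest pair share, Pi16, Cd55 and Mfap5 were on the list of adventitial fibroblast genes. Akap12, a scaffold of kinase signalling, had the lowest share at 19.5%. Its level ran from 0 to 630 with a median of 71.6 in cluster 11, against 2.52 to 865 with a median of 263.2. Pi16, a secreted peptidase inhibitor and marker of adventitial fibroblasts (chromosome 17, 29317680 to 29330593), ran from 9.42 to 5071 with a median of 1836, against 722 to 5668 with a median of 3033, and 36 of the 43 cells lay below the median of cluster 3 (pair share 21.6%). Pi16 stood at 607, 1246, 2150 and 3620 in the 4 PdgfrbGFP cells (mean of cluster 3, 3257) and at 1138, 1596 and 2525 in the 3 C57BL6 cells (mean of cluster 3, 2797).

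Mfap5, which encodes a protein of the elastic microfibril (chromosome 6, 122505845 to 122529290), ran from 0 to 421 with a median of 78.02, against 0 to 580.04 with a median of 214.4 (pair share 24.7%). It stood at 39.2, 56.6, 91.7 and 277.9 in the PdgfrbGFP cells and at 70.9, 178.98 and 332.7 in the C57BL6 cells, below the mean of cluster 3 in C57BL6 (415) in all 3, and 3 of the 4 PdgfrbGFP cells lay below the median of theirs (234.7). The alarmin gene Il33 had means of 64.4 and 183.1 (21.9%). The complement regulator Cd55 had 398 and 746 (23.3%), and the lipopolysaccharide-binding protein gene Lbp had 165.4 and 451 (23.9%). Aldh1a3, which makes retinoic acid, had 129.955 and 376 (24.4%). Part of the Cd55 locus overlaps Gm16083 (pair share 25.4%), and a read there could belong to either gene. The amino acid and nucleobase transporter gene Slc43a3 had 269.2 and 528 (26.1%), and all 4 PdgfrbGFP cells lay below the median of their cluster 3. The other genes of this set included Olfml2b, Selenop, Gstt1, Ddah2, Gm2a, Plscr4, Pmp22, Fads1, Rab3il1, Arap1, Lrrc61, Soat1, Pcolce2, Tmem204, Mid1ip1, Olfml1, Col16a1, Rarres2, Tmppe, Mrpl58 and Dbn1, with pair shares of 23.9% (Olfml2b) to 29.9% (Dbn1).

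These directions were compared with the cells of the other lines. Of the 17 genes, 13 had a pair share above 50% in PdgfrbGFP cells of the plate and 16 in C57BL6 cells, where 47% and 41.9% of all described genes did. Of the 31, 28 and 29 had a pair share below 50%, where 52.1% and 58% of all described genes did. The 17 had a median log2 difference of 0.96 in Acta2GFP, 0.65 in PdgfrbGFP and 0.72 in C57BL6, and the 31 had -1.05, -0.71 and -1.09. With 4 and 3 cells, and cluster labels made from the same genes, this is a description of those cells and no test. Cav1, Hsp90ab1, Thsd7a, Lmna and Vim were among the genes whose log2 difference was under 0.1 or below 0 in PdgfrbGFP cells.

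Against the 37 Acta2GFP cells of the other fibroblast clusters (1, 2, 6, 7, 8 and 9), 27 genes of 5114 had a pair share of at least 70% (0.528%) and 10 of at most 30% (0.196%). Spon2 led with 83.03% (mean 1419 against 336.2), followed by Lgals3 (79.6%, 265.01 against 92.2), and Prss23 reached 76.5% (1051 against 459). The heparan sulphate sulphatase gene Sulf2 (79.5%, 416 against 156.8), the matrix metalloproteinase gene Mmp14 (77.2%), C1qtnf3 (76.4%, 461 against 212.4), Gas7 (75.8%) and the CXCL12 receptor gene Ackr3 (75.6%) came with them. Sulf2 and C1qtnf3 did not separate cluster 11 from cluster 3, as their means there were 395 and 505. The channel gene Piezo1 had means of 82.5 in cluster 11, 38.03 in cluster 3 and 8.37 in the other clusters. Lbp (23.1%, 165.4 against 605) and Mfap5 (25.05%, 105.4 against 300.7) were lower here too, while Pi16 (47.1%, 1813 against 1977) and Cd55 (58.3%, 398 against 393) lay near even. This comparison and that with cluster 3 share the cluster 11 cells.

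Between the lines, 25 of 5119 genes of cluster 3 had a pair share of at least 70% (0.488%) in Acta2GFP against PdgfrbGFP cells on the plate and 5 of at most 30% (0.0977%). The collagens Col3a1 (83.1%, mean 3720 against 2401), Col1a2 (77.4%, 4055 against 2707) and Col6a2 (75.5%) and the retinaldehyde reductase gene Dhrs3 (78.9%) led. Cirbp, a cold-induced gene, was lowest (18.2%, 13.4 against 82.9). Col3a1 stood at 3458 in cluster 11 of Acta2GFP. Hspa5 (70.998%) and Spon2 (71.1%) were above 70% in this comparison of lines as well as in that of clusters, which both use the Acta2GFP cells of cluster 3. The values of Lgals3 (55.96%), Cav1 (50.3%) and Prss23 (49.03%) were near even between the lines.

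Over the gene lists, the immediate-early genes stood mostly on the high side. Of the 17 described members 15 lay above 0 and 4 were at least 2-fold higher in cluster 11 (6.33% of all described genes were), namely Egr2 (log2 difference 2.52), Fosb (1.93), Atf3 (1.499) and Nr4a1 (1.22), and the median was 0.47, where the median over all described genes was -0.02 and 48.9% of them lay above 0. The median of the list was 0.85 in C57BL6 but -0.22 in PdgfrbGFP cells. The summed level of the list had a median of 8154 in cluster 11 (1297 to 32615), against 5776 in cluster 3 (2024 to 12270), and its pair share was 74.7% in Acta2GFP, 74.04% in PdgfrbGFP and 74.2% in C57BL6 cells. It was higher still in the 12 mural cells of the line, with a median of 22477, and it did not set cluster 11 apart from the other fibroblast clusters (55.8%). All 11 heat shock genes lay above 0, with a median of 0.57, and Dnajb1 (1.93, mean 787 against 206.2) was at least 2-fold higher. The list also differed between the lines within cluster 3, with a pair share of 66.6% for its sum and a median log2 difference of 0.68. These genes are known to respond to tissue dissociation, and the part of the dissociation was not tested. Of the 14 ER chaperone genes 11 lay above 0, with a median of 0.23.

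Of the adventitial fibroblast genes, 9 were described. Of these 2 were at least 2-fold lower (7.17% of all described genes were), Mfap5 (-1.26) and the annexin gene Anxa3 (-1.22). Below 0 lay 7 (51.1% of all described genes did), and the median was -0.59, with Ackr3 at 0.41 and Sema3c at 0.02. The summed level, to which Pi16, Cd55 and Mfap5 with their low pair shares belong, had a median of 4312 in cluster 11 (541 to 7825) and 6352 in cluster 3 (2952 to 9920). Its pair share was 23.3% in Acta2GFP, 28.5% in PdgfrbGFP and 21.6% in C57BL6 cells against cluster 3, and 53.3% against the other fibroblast clusters of Acta2GFP. Ly6a, a widely used marker of these cells, had means of 417 and 472. Of the 14 elastic fibre genes 11 lay below 0, with a median of -0.36 (-0.67 in C57BL6), but in PdgfrbGFP cells the median was 0.13 and the pair share of the sum 49.04%. Emilin2 (-1.33) and Mfap5 were at least 2-fold lower, 2 of the 14 beside 7.17% of all described genes. Eln itself had means of 155.6 and 205.6, and the list had a summed median of 3423 against 5197.

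**Figure D4:**
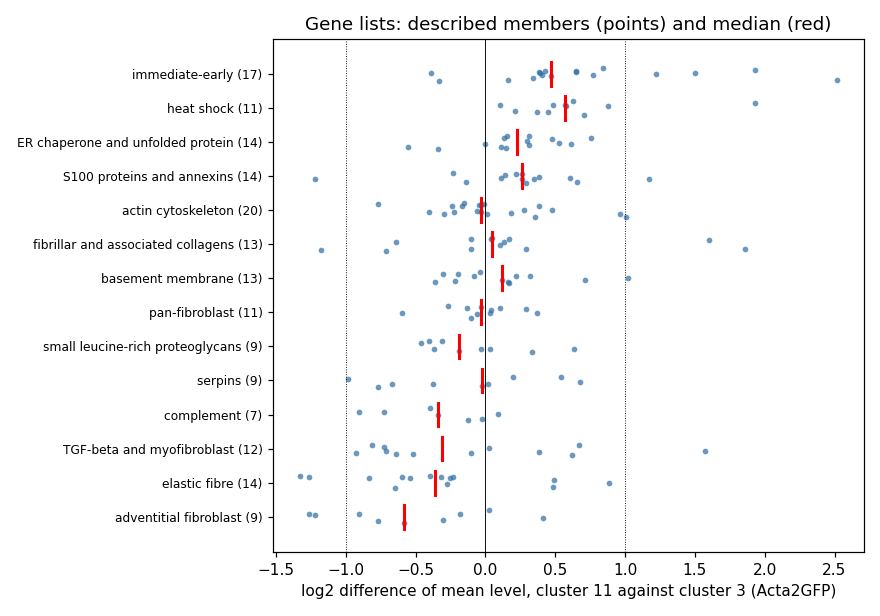
Log2 difference of mean level between cluster 11 and cluster 3 of Acta2GFP for the described members (blue points) of 14 gene lists, with the number of described members in brackets and the median in red. The heat shock and immediate-early medians lie at 0.57 and 0.47 and the adventitial median at -0.59, with the pan-fibroblast median at -0.03.

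Of the 14 S100 and annexin genes 11 lay above 0 (48.9% of all described genes did), with a median of 0.26. Against the other fibroblast clusters of Acta2GFP the median was 0.08 and the pair share of the summed level 63.2%. The values that follow are against cluster 3. At least 2-fold higher was S100a4 (1.17) and at least 2-fold lower Anxa3, 1 member each way beside 6.33% and 7.17% of all described genes, and the summed level had pair shares of 72.9%, 86.5% and 89.2% in Acta2GFP, PdgfrbGFP and C57BL6 cells. The basement membrane genes (median 0.12, Col15a1 at 1.02), the small leucine-rich proteoglycans (-0.19), the actin cytoskeleton genes (-0.03, Tpm2 at 1.01) and the complement genes (-0.34) had at most 1 member past 2-fold. Of the 12 genes of the TGF-β and myofibroblast list, Ltbp3 (1.57) was at least 2-fold higher, while the matricellular gene Ccn2 (-0.93) and Acta2 (-0.82) were lower by less, and the median was -0.31. Of the 8 described serine protease genes none passed 2-fold (median -0.23), and Spon2 was the 1 described member of the spondin list. Among the 3 described galectin genes Lgals3 (2.99) stood apart from Lgals1 (0.19) and Lgals9 (-0.41), and Lgals3bp, the gene for a glycoprotein that binds galectin-3, was at 0.44.

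Over the 11 clusters, Lgals3 and Prss23 had their highest mean in cluster 11, taken over groups of 1 line on 1 plate with at least 3 cells. The 3 groups of cluster 11 were 43 Acta2GFP and 4 PdgfrbGFP cells of bladder_515s and 3 C57BL6 cells. They count alike in the mean despite these sizes and are not replicates, and the SD describes only their spread. Lgals3 stood at 296.4 ± 183.6 (SD, n = 3 groups) in cluster 11, followed by 154.1 ± 87.2 (n = 7) in cluster 10 and 140.4 ± 40.6 (n = 2) in cluster 9, a step within the spread. Prss23 stood at 1079.8 ± 198.5 (n = 3) and 690.2 ± 288.1 (n = 6) in cluster 6. Spon2 was highest in cluster 6, at 1137 ± 261.6 (n = 6), and stood at 1085 ± 319.8 (n = 3) in cluster 11, less than 1 SD below it. Sulf2 had its highest mean in cluster 11 (367 ± 76.9) and cluster 3 followed (272.98 ± 73.1, n = 6), but the groups come from different lines, and within Acta2GFP its means were 416 and 395 (pair share 54.2%). For Mfap5 cluster 11 was in ninth place (138.7 ± 48.4), with clusters 5 and 10 lower.

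**Figure D5:**
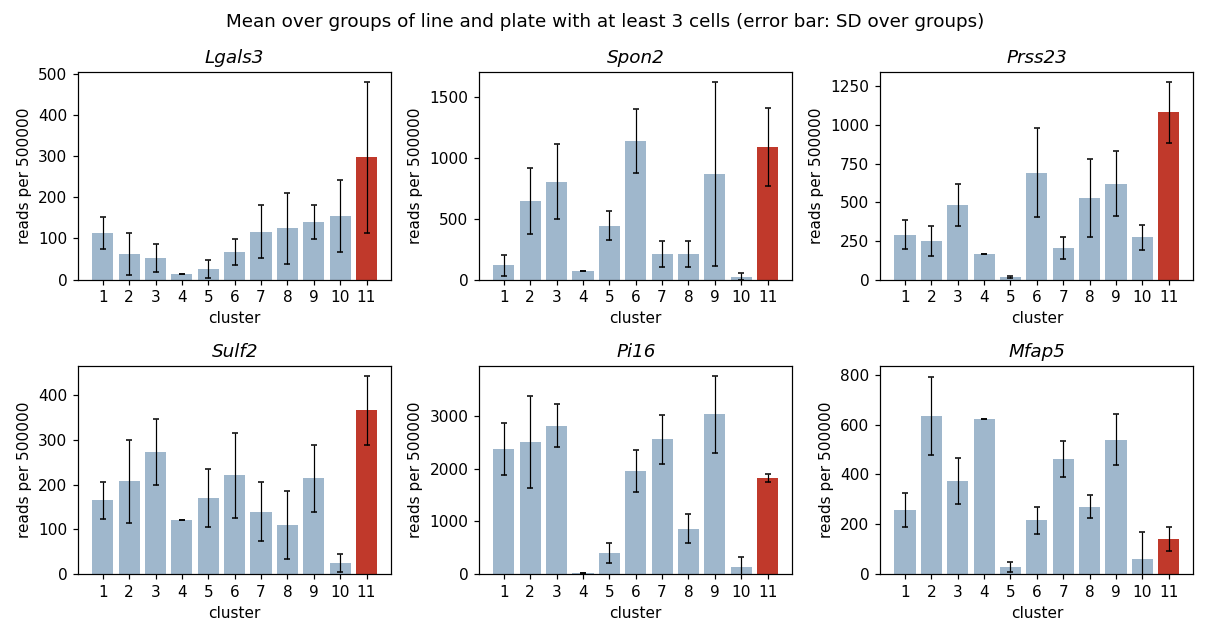
Mean level (reads per 500000 endogenous reads) of 6 genes in clusters 1 to 11, as the mean over groups of 1 line on 1 plate with at least 3 cells, with the SD over groups as error bars; cluster 4 has 1 group and no bar. Cluster 11 (red) has the highest mean for Lgals3 (296.4), Prss23 (1079.8) and Sulf2 (367), and cluster 6 has the highest for Spon2 (1137).

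Whole profiles of cells were also compared. Over the described genes and with cells thinned to equal depth, pairs of Acta2GFP cells within cluster 11 had a mean correlation of 0.310 across genes (903 pairs), pairs within cluster 3 of 0.315, and pairs of 1 cell from each of 0.306. The value was 0.298 for cluster 11 with the other fibroblast clusters and 0.201 with the mural cells. Pairs share cells, and no test was made. Among the 43 cells, Lgals3 and Fos had a Spearman correlation of -0.49, and Fos had -0.48 with the number of genes detected at equal depth. Lgals3 had 0.05 with Spon2 and 0.16 with Prss23, and Spon2 had 0.34 with Prss23. Lgals3 had 0.31 with total reads and 0.32 with that number of genes, and Fos had -0.37 with total reads. These values describe 43 cells of 1 plate, which differed in depth (61373 to 329638 reads). The part of depth in them was not tested.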

How the data were processed

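Single bladder cells were sequenced with Smart-seq2 (single reads of 50 bases, no molecular identifiers). According to the study's methods, the authors trimmed adapters with trim galore, mapped reads to GRCm38 with TopHat2, removed what they call doublets with samtools (not described further; if these are duplicate reads, high levels would be lowered) and counted reads per gene with featureCounts. The deposited values are raw read counts of 46517 genes and 92 ERCC rows, and 0 columns lacked a sample. Gene names came from GENCODE M21 (46005 matched). A level is the count per 500000 endogenous reads of a cell. Log2 differences compare class means with a pseudocount of 1. Named genes were the 3 given markers, the 15 highest and 10 lowest described genes with a symbol, and list members with the largest differences; a few of these genes are not reported here. The pair share (limits of 70% and 30%, ties counted as even) and the genes named from it were chosen after seeing the data. Cells were thinned without replacement. No test was made, since no animal is named and clusters rest on the same genes. Cells ranged from 51827 to 594853 reads in cluster 11, and intervals cover counting error only. The members and lists were chosen with earlier results of these data known. Alternatives were other scalings (edgeR 4.0.16 TMM, DESeq2 1.42.0 size factors), filters, depths, cells and references. The calculations were checked on simulated data.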

Additional observations from a re-analysis of the deposited data

How the results depend on the processing

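No paired analysis was possible because the replicate numbers only name cells and no result comes from a test. Comparisons within 1 line and plate are given above. The share of described genes at least 2-fold higher (6.33%) and lower (7.17%) rests on counts that kept within 1.5 times under the other scalings, a pseudocount of 0.1, thinning, the other reference and the removal of cells with at least 5 mural neighbours. A pseudocount of 10 gave 2.50% and 2.79%, no filter 10.3% and 10.6%, the study's gene filter 12.4% and 12.96%, cells of 100000 to 200000 reads (20 against 16 cells) 12.8% and 14.2%, and all cells of both clusters 2.16% and 11.3%. The median over cells gave 18.01% lower. Of the genes at least 2-fold higher by the mean, 74 (22.2%) were also at least 2-fold higher by the median over cells. Of those at least 2-fold lower by the mean, 34.1% were also at least 2-fold lower by the median. Most of the 2-fold calls thus did not hold by the median over cells. A pair share of at least 70% (0.322%) became 1.498% with cells of 100000 to 200000 reads and 0.519% with all cells, and one of at most 30% (0.588%) became 2.67% and 1.79%. Thinning shared 13 of the 17 genes and 25 of the 31. Removal of cells with at least 5 mural neighbours shared 14 and 24. Cells of 100000 to 200000 reads shared 12 and 17, and all cells of both clusters only 7 and 17. The alternatives of the pair share were chosen after seeing the data, and the cause of these moves was not tested. Against the other fibroblast clusters, the log2 differences of Fads1 (0.11) and Tmppe (0.69) turned positive, as did Cd55 (0.02), and 26 of the 31 genes with low pair shares had one below 50% there. Of the genes at least 2-fold higher than in cluster 3, 27.8% were so with this reference, and 28.3% of those lower. Lgals3 ranged from 1.51 to 5.69 over 14 alternatives, Spon2 from 0.84 to 2.07 and Prss23 from 0.54 to 1.19. Without cluster 10 the share of Acta2GFP cells was 36.8%. Unthinned, the median number of genes per cell was 3973 in cluster 11 and 4387 in cluster 3.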

Other observations

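Of the 81 described cytosolic ribosomal protein genes, 0 were 2-fold higher or lower in cluster 11 than in cluster 3 of Acta2GFP, where 6.33% of all described genes were higher and 7.17% lower by that much, and the median log2 difference was 0.06. The 9 described mitochondrial genes had a median of 0.09 and the 12 glycolysis and hypoxia genes one of 0.11. The 11 lysosome and cathepsin genes had a median of -0.02. The 9 described interferon response genes had a median of 0.08. The NRF2 and metallothionein (6 described, median -0.01), serpin (9, -0.03), MMP and TIMP (7, -0.003), BMP and Wnt (8, 0.14), Hedgehog (5, -0.01), chemokine and cytokine (5, -0.59), lipid handling (5, 0.07) and integrin (7, -0.19) lists had at most 1 member past 2-fold each, beside the same 6.33% and 7.17% of all described genes. These members were Mmp19 (1.01), Gdf10 (1.07), Ptch1 (-1.13), Il33 (-1.49), Apod (-1.04) and Itga9 (-1.20). Of the sub-epithelial fibroblast genes 2 of 9 were described, Col12a1 (1.603, past 2-fold as 6.33% of all described genes were) and Cxcl14 (0.93), and Bmp5, Bmp7 and Ptgs1 were at 0. The pair share of the list's summed level was 65.4% in Acta2GFP, 34.3% in PdgfrbGFP and 71.8% in C57BL6 cells. Of the 10 mesothelial genes Nkain4 was described (-1.72, at least 2-fold lower). Of the 7 Schwann genes Mbp was described (0.41), and Sox10, Gfap and Kcna1 were at 0. Few cell cycle genes were described (3 of 12), and Top2a and Ccnb1 were at 0 in all 43 cells.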
